A study of Homo sapiens with 6 samples.

Results

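The genes of MHC class I antigen presentation were followed on 6 arrays of the human osteosarcoma lines KHOS and U-2OS, 3 arrays each. The 10 genes were B2M, HLA-B, HLA-C, HLA-E, HLA-F, TAP1, TAP2, TAPBP, PSMB8 and PSMB9, and they were chosen by name, as every probe set of the Affymetrix U133 Plus 2.0 array whose platform symbol is one of them. A probe set is a group of short probes read as 1 value. This gave 26 of the 54675 probe sets, and 19 of the 26 were among the 16397 whose highest value on the 6 arrays exceeded a signal limit of 100, which is 6.64 as a log2 value. All 10 genes had at least 1 probe set above this limit, and 0 probe sets that the platform assigns to several genes included a member.

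In each line, cells received CDK11 siRNA at 40 nM, nonspecific siRNA at 40 nM or no transfection, and 1 array was hybridized per condition. The siRNAs were introduced with a lipid reagent, and the methods give 48 h between transfection and RNA extraction. Each array holds the pooled RNA of 3 flasks, and no condition was repeated within a line. The untransfected cells are labelled as having no transfection, and cells given the lipid reagent alone were not analysed here. The values are log2 signals from gcrma. Between 24.8% and 25.9% of all probe sets lay above the limit on each array. The precision is limited by how few arrays there are. The brightest probe set assigned to both CDK11A and CDK11B kept 20.6% of its nonspecific siRNA signal with CDK11 siRNA in KHOS and 16.0% in U-2OS. Of 7 osteoblast markers read, only RUNX2, COL1A1 and SPARC passed the limit, while SP7 and ALPL, which mark committed osteoblasts, stayed at or below 3.0. None of 6 blood cell markers and none of 6 MHC class II genes passed the limit.

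MHC class I molecules display peptides from inside the cell to CD8 T cells. Proteasomes cut proteins into peptides, the TAP1 and TAP2 transporter carries the peptides into the endoplasmic reticulum, and tapasin, encoded by TAPBP, holds the empty class I molecule at the transporter. The molecule itself is a heavy chain, made by an HLA gene, bound to the light chain beta-2-microglobulin, made by B2M. PSMB8 and PSMB9 encode catalytic subunits that replace their constitutive counterparts in the immunoproteasome. Interferons are known inducers of nearly all of these genes. Some tumours, osteosarcomas among them, carry little class I on their surface.

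In KHOS, all class I genes but TAP2 had higher levels on both siRNA arrays than on the untransfected array. In U-2OS the mean siRNA difference of these genes ran only between -0.54 and 0.35 on the log2 scale. The mean of both siRNA arrays minus the untransfected array was above 0 for 18 of the 19 probe sets in KHOS, with a median of 0.87, and for 15 of 19 in U-2OS, with a median of 0.12. The medians over all 16397 probe sets were -0.01 in KHOS and -0.02 in U-2OS. Both siRNA arrays lay at least 1 log2 unit above the untransfected array for 7 of the 19 probe sets in KHOS, where 1.02% of all probe sets did so, and for 0 of 19 in U-2OS, where 0.579% did. The 7 belonged to TAP1, PSMB9, PSMB8, HLA-B and HLA-C. Several genes have more than 1 probe set, and most heavy chain probe sets can match other HLA genes. In these counts and those below, the 19 are therefore not independent readings. Both siRNA arrays were above the untransfected one by any amount for 18 of 19 probe sets in KHOS, against 34.0% of all probe sets, and for 12 of 19 in U-2OS, against 34.6%.

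**Figure D1:**
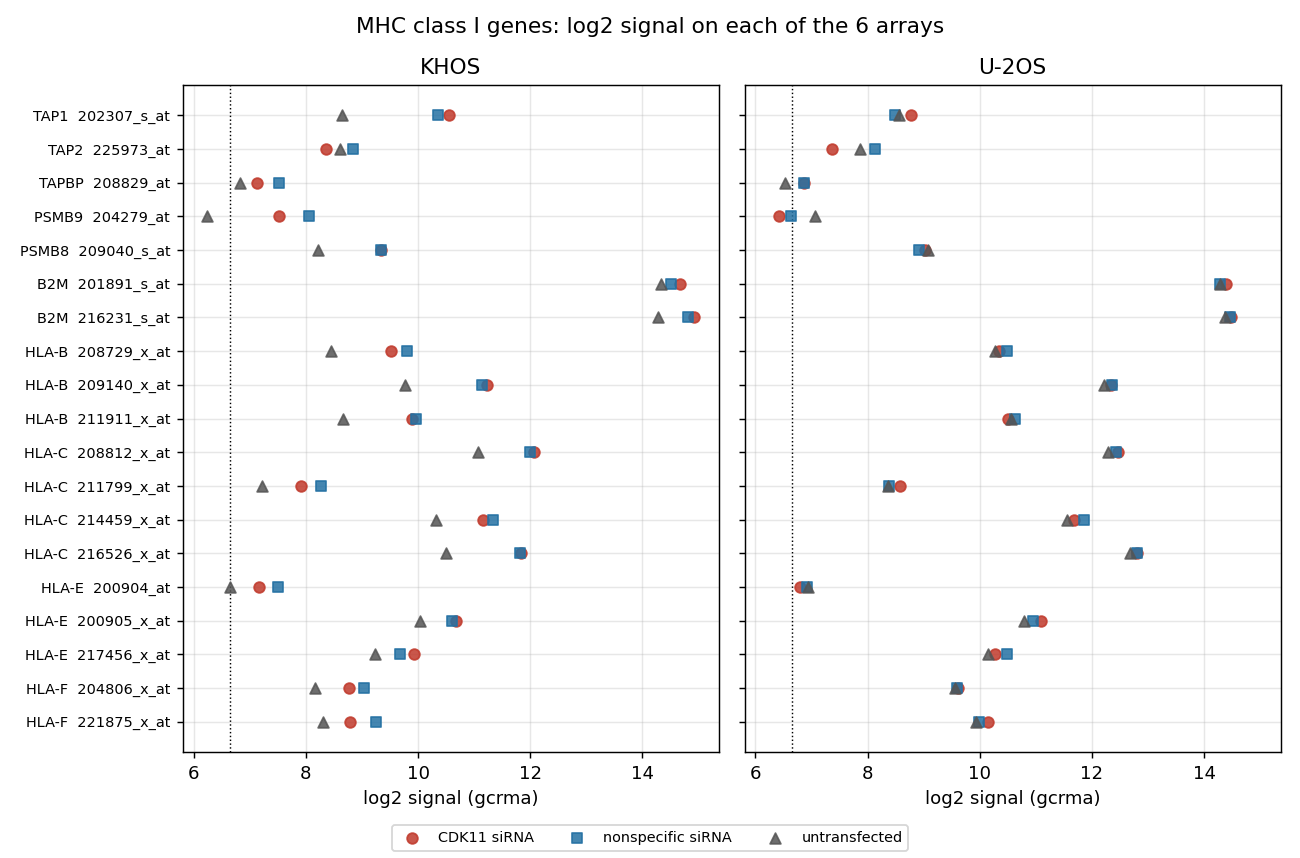
Log2 signal (gcrma) of the 19 class I probe sets above the signal limit on the 6 arrays, with KHOS on the left and U-2OS on the right, 1 marker per array, and the dotted line at the limit of 6.64. In KHOS the untransfected marker lies left of both siRNA markers for 18 of 19 probe sets, all but TAP2, while in U-2OS the 3 markers lie close together for most.

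These differences all use the untransfected array of the line, and those of KHOS rest on that array alone. Over all 16397 probe sets it was the lowest of the 3 KHOS arrays for 5583, against 6097 for the CDK11 siRNA array and 4723 for the nonspecific siRNA array. Its median over the probe sets above the limit was 8.71, against 8.71 with CDK11 siRNA and 8.72 with nonspecific siRNA. The authors normalized the arrays with gcrma, so near-equal medians do not tell whether this array is unusual. In bulk RNA of this kind, more cells with a transcript and more transcript per cell cannot be told apart.

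The start regions of the class I genes are shown because many of the genes with higher levels on both KHOS siRNA arrays share short sequences there, and because TAP2, whose level was not higher on both, holds them too. RefSeq windows of 250 bases before a gene's start, build GRCh38.p14, were read for 9 of the 10 genes, all but HLA-E, in 11 windows since TAP1 and PSMB8 have 2 starts each. The capitals mark each match to the core of the interferon regulatory factor motif, AANNGAAA or on the other strand TTTCNNTT, where N is any base. Sequences run 5′ to 3′ in the direction of the gene. The windows are chr6:32853705-32853954 for TAP1, chr6:32838740-32838989 for TAP2, chr6:31357180-31357429 for HLA-B, all on the minus strand, and chr6:32853942-32854191 for PSMB9 and chr15:44711267-44711516 for B2M on the plus strand.
TAP1: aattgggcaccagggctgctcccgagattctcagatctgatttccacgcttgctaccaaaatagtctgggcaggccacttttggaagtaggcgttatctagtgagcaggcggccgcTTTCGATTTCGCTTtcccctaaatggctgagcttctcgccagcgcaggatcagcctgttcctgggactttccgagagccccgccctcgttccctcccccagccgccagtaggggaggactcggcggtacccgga
PSMB9: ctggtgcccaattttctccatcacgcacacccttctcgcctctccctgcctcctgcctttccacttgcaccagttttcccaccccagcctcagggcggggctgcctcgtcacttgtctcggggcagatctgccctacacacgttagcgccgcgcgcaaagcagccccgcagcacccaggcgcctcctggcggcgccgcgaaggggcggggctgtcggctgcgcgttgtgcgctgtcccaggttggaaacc
B2M: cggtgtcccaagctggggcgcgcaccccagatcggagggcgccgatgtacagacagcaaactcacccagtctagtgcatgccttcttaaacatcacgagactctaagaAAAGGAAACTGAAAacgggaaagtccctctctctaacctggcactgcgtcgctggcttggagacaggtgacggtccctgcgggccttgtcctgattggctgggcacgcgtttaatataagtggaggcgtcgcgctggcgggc
HLA-B: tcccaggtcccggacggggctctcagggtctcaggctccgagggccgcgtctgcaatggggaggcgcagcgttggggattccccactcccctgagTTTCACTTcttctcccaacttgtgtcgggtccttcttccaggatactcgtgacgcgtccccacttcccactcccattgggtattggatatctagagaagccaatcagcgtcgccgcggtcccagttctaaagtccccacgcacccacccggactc
TAP2: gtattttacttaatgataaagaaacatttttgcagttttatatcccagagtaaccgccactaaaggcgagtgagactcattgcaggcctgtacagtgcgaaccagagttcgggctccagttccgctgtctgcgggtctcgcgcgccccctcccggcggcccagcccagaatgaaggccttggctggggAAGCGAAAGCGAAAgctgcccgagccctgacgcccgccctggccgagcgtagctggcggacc

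The core was found for 7 of the 9 genes, in 7 of their 11 windows, and in 20.3% of 35116 such windows over all genes. TAP1, TAP2, TAPBP and B2M each held 2 cores, which overlap each other at their ends, and HLA-B, HLA-C and HLA-F held 1 each. In the HLA genes the core lay at like distances, starting 155 bases before the start in HLA-B, 151 in HLA-C and 156 in HLA-F. HLA genes are near copies of each other, so their matches to this motif and to those below are not independent. In TAP1 the cores began 134 and 128 bases before the start, in B2M 142 and 136, in TAP2 62 and 56, and in TAPBP 18 and 12. No core was found in these windows of PSMB8 or PSMB9. PSMB9 lies head to head with TAP1, with 488 bases between their starts on chromosome 6, and the printed windows of both genes overlap. In the order of the RefSeq gene table TAP2, PSMB8, PSMB8-AS1, TAP1 and PSMB9 follow each other directly.

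Other motifs were searched on both strands of the same windows. ATTGG or its other strand CCAAT, the box that nuclear factor Y binds, was found for 6 of the 9 genes, in 6 of the 11 windows, and in 32.0% of all windows. The matches of TAP1 and PSMB9 are the same bases, in the stretch where their windows overlap. HLA-B and HLA-C each held it with its first base 56 bases before the start, and again farther away. TGACG or CGTCA, the core of a cyclic AMP response element, was found for 6 of 9 genes, in 6 of the 11 windows, and in 21.2% of all windows. TTCNNNGAA, a STAT factor motif, was found for TAP1 and PSMB8, in each case before the downstream of their 2 starts, thus in 2 of the 11 windows, and in 6.57% of all windows. No match of one motif overlapped a match of another. These are matches of letters, and binding was not measured.

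TAP1 encodes one chain of the peptide transporter and had the largest difference of the 19 probe sets in KHOS. Its log2 level was 10.55 with CDK11 siRNA, 10.35 with nonspecific siRNA and 8.64 in untransfected KHOS cells. In U-2OS it was 8.77 with CDK11 siRNA, 8.49 with nonspecific siRNA and 8.55 untransfected. Both KHOS siRNA arrays thus stand apart, and the untransfected KHOS array lies among the U-2OS arrays. The mean of both siRNAs over untransfected was 3.51-fold in KHOS and 1.05-fold in U-2OS. On the log2 scale this was 1.81 ± 0.21 for KHOS and 0.08 ± 0.21 for U-2OS (standard error of the limma fit that takes both siRNA arrays of a line as repeats, although the siRNAs differ). The residual spread of that fit comes from the siRNA arrays only, since each line has a single untransfected array. Its errors, here and for the differences from untransfected below, therefore do not measure how untransfected arrays vary.

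TAP2 encodes the partner chain of TAP1 in the transporter. The only TAP2 probe set above the limit, 225973_at, had levels of 8.35 with CDK11 siRNA, 8.84 with nonspecific siRNA and 8.60 in untransfected KHOS cells. In U-2OS the levels were 7.37 with CDK11 siRNA, 8.12 with nonspecific siRNA and 7.86 untransfected. In both lines the CDK11 siRNA array was the lowest and the nonspecific siRNA array the highest. The mean of both siRNAs differed from untransfected by -0.01 ± 0.40 in KHOS and -0.11 ± 0.40 in U-2OS. Of 3 further TAP2 probe sets, 204769_s_at had levels between 5.71 and 6.25, and the other 2, 204770_at and 208428_at, stayed between 1.77 and 2.37 on all arrays.

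TAPBP, which encodes tapasin, was measured above the limit by 208829_at. Its levels were 7.14 with CDK11 siRNA, 7.52 with nonspecific siRNA and 6.83 in untransfected KHOS cells, and 6.87 with CDK11 siRNA, 6.87 with nonspecific siRNA and 6.52 untransfected in U-2OS, the last of which is below the limit. The mean of both siRNAs differed from untransfected by 0.50 ± 0.22 in KHOS and by 0.35 ± 0.22 in U-2OS, the highest value of the 19 probe sets in U-2OS. The other TAPBP probe sets, 1555565_s_at and 210294_at, stayed between 2.45 and 2.57.

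The immunoproteasome subunits PSMB9 and PSMB8 were above untransfected with both siRNAs in KHOS and not in U-2OS. PSMB9 had levels of 7.51 with CDK11 siRNA, 8.06 with nonspecific siRNA and 6.24 in untransfected KHOS cells, the last of which is below the signal limit. In U-2OS its levels were 6.41 with CDK11 siRNA, 6.63 with nonspecific siRNA and 7.06 untransfected, so that both U-2OS siRNA arrays are below the limit too. Both siRNA arrays were therefore above the untransfected array in KHOS, on average by 1.54 ± 0.29, and below it in U-2OS, with a difference of -0.54 ± 0.29. PSMB8 had 9.34 with CDK11 siRNA, 9.34 with nonspecific siRNA and 8.21 in untransfected KHOS cells. In U-2OS its levels were 9.03 with CDK11 siRNA, 8.92 with nonspecific siRNA and 9.08 untransfected, which are nearly equal. The PSMB8 difference was 1.13 ± 0.15 in KHOS, or 2.18-fold, and -0.11 ± 0.15 in U-2OS.

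B2M, the light chain common to all classical and nonclassical heavy chains here, had the smallest mean difference over its probe sets, 0.42, among the 9 genes above untransfected in KHOS. This rank depends on the probe sets read, since the brightest one of B2M, 216231_s_at, differed by 0.58, against 0.50 for TAPBP. Probe set 216231_s_at had 14.93 with CDK11 siRNA, 14.81 with nonspecific siRNA and 14.28 in untransfected KHOS cells, and 14.48 with CDK11 siRNA, 14.47 with nonspecific siRNA and 14.38 untransfected in U-2OS. Probe set 201891_s_at had 14.67 with CDK11 siRNA, 14.50 with nonspecific siRNA and 14.33 in untransfected KHOS cells, and 14.40 with CDK11 siRNA, 14.28 with nonspecific siRNA and 14.29 untransfected in U-2OS. Both siRNA arrays were above the untransfected array in KHOS for both probe sets, by 0.58 ± 0.16 and 0.26 ± 0.17 on average. A further B2M probe set, 232311_at, lay below the limit, with levels between 4.35 and 6.14.

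The heavy chains were measured by 12 probe sets above the limit, and 11 of these carry the suffix x, with which the platform marks probes that can match other sequences. HLA genes are near copies of each other, and the signal of these probe sets cannot be assigned to 1 gene alone. The differences below are given under the platform's symbol with this limit. Whether the heavy chain probes read the HLA sequences of both lines equally well was not tested. The exception is 200904_at, assigned to HLA-E.

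The probe sets of HLA-B, a classical heavy chain, had the largest differences among the heavy chains together with 1 of HLA-C. Probe set 209140_x_at had 11.22 with CDK11 siRNA, 11.15 with nonspecific siRNA and 9.76 in untransfected KHOS cells. In U-2OS it had 12.33 with CDK11 siRNA, 12.35 with nonspecific siRNA and 12.22 untransfected. All 3 KHOS levels lie below all 3 U-2OS levels, and the siRNA arrays of KHOS lie nearer to U-2OS than the untransfected array does. The mean of both siRNAs over untransfected was 2.68-fold in KHOS and 1.09-fold in U-2OS. The other HLA-B probe sets, 208729_x_at and 211911_x_at, differed by 1.22 ± 0.20 and 1.27 ± 0.16 in KHOS, and by 0.14 ± 0.20 and 0.02 ± 0.16 in U-2OS.

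HLA-C, also a classical heavy chain, had 4 probe sets, which differed from each other in size but not in sign. Probe set 216526_x_at had 11.84 with CDK11 siRNA, 11.82 with nonspecific siRNA and 10.50 in untransfected KHOS cells, and 12.80 with CDK11 siRNA, 12.81 with nonspecific siRNA and 12.68 untransfected in U-2OS. Its mean over both siRNAs was 2.51-fold of the untransfected level in KHOS and 1.09-fold in U-2OS. The other 3 were 208812_x_at, with a KHOS difference of 0.96, 211799_x_at, with 0.87, and 214459_x_at, with 0.93. Their U-2OS differences ran between 0.12 and 0.22.

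HLA-E and HLA-F encode nonclassical heavy chains, and HLA-E is the ligand of an inhibitory receptor of natural killer cells. The HLA-E probe set 200904_at had 7.16 with CDK11 siRNA, 7.50 with nonspecific siRNA and 6.65 in untransfected KHOS cells. In U-2OS it had 6.79 with CDK11 siRNA, 6.92 with nonspecific siRNA and 6.93 untransfected. The differences of the 3 HLA-E probe sets, the others being 200905_x_at and 217456_x_at, ran between 0.57 and 0.68 in KHOS, against -0.08 to 0.23 in U-2OS. The HLA-F probe set 221875_x_at had 8.79 with CDK11 siRNA, 9.26 with nonspecific siRNA and 8.31 in untransfected KHOS cells, and 10.14 with CDK11 siRNA, 9.99 with nonspecific siRNA and 9.93 untransfected in U-2OS. The differences of 221875_x_at and 204806_x_at, both HLA-F probe sets above the limit, were 0.71 and 0.73 in KHOS, where 0.13 and 0.04 were seen for U-2OS. The third, 221978_at, stayed between 2.74 and 3.35.

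**Figure D2:**
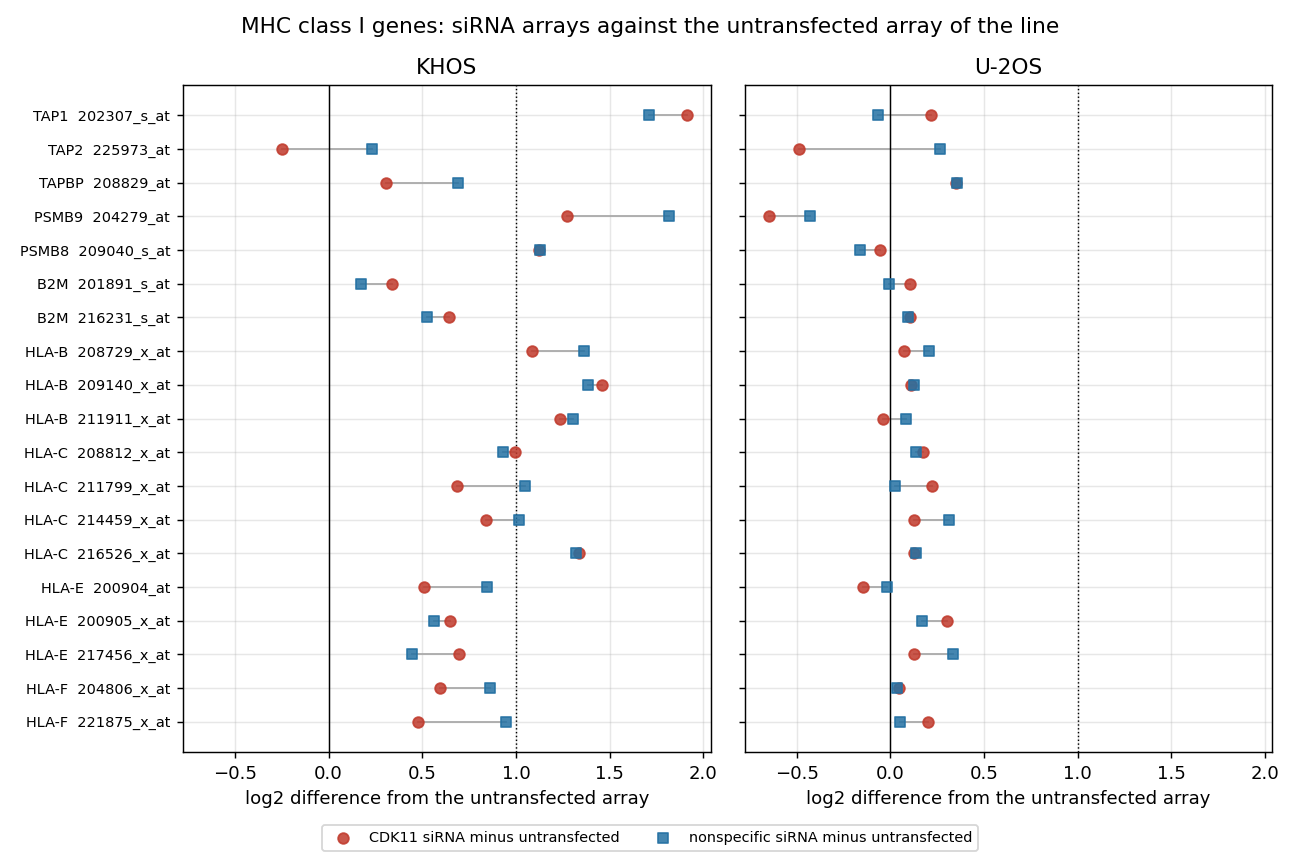
Log2 difference of the CDK11 siRNA array and of the nonspecific siRNA array from the untransfected array of the same line, for the 19 class I probe sets, with KHOS on the left and U-2OS on the right. The solid line is at 0 and the dotted line at 1. In KHOS all but the CDK11 siRNA value of TAP2 lie above 0, and in U-2OS none reaches 1.

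Both siRNAs were set against the untransfected array separately as well, and these comparisons share that array. With CDK11 siRNA, 18 of 19 probe sets were above untransfected in KHOS, with a median of 0.70, and 14 of 19 in U-2OS, with a median of 0.11. With nonspecific siRNA, 19 of 19 were above it in KHOS, with a median of 0.95, and 14 of 19 in U-2OS, with a median of 0.09. A scaled difference beyond 3 SD of all probe sets, the threshold in the study's methods, was reached with nonspecific siRNA by 7 of 19 in KHOS, where 1.51% of all probe sets lay beyond it, and by 0 of 19 in U-2OS, where 1.59% did. With CDK11 siRNA it was reached by 1 of 19 in KHOS, TAP1, where 1.59% of all did, and by 0 of 19 in U-2OS, where 1.62% did. The SD over all probe sets was 0.54 for CDK11 siRNA and 0.37 for nonspecific siRNA in KHOS, so that the same log2 difference scores lower with CDK11 siRNA. HLA-B 209140_x_at, for instance, differed by 1.46 with CDK11 siRNA and by 1.39 with nonspecific siRNA and had scores of 2.71 with CDK11 siRNA and 3.72 with nonspecific siRNA.

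With each line as the repeat of the other, the limma fit with cell line and transfection as terms called 0 of 19 class I probe sets for CDK11 siRNA against untransfected and 0 of 19 for nonspecific siRNA against untransfected, at a Benjamini-Hochberg adjusted p of 0.05. It called 0% of all 16397 probe sets in each. At an unadjusted p under 0.05 limma gave 2 class I probe sets and 3162 of all for CDK11 siRNA, and 2 and 1468 for nonspecific siRNA. The lowest adjusted p among the class I probe sets was 0.210 for CDK11 siRNA, in HLA-E 200905_x_at, and 0.488 for nonspecific siRNA, in TAPBP. The fit has 2 residual degrees of freedom and treats a difference between the lines as error.

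The difference between the lines was therefore fitted directly, as KHOS minus U-2OS of siRNA against untransfected, with both siRNA arrays of a line as repeats. It was above 0 for all 19 probe sets, with a median of 0.74, against 0.02 over all probe sets. The largest was that of PSMB9, 2.08 ± 0.40, where 1 of the 3 KHOS arrays and 2 of the 3 U-2OS arrays are below the signal limit. It was followed by TAP1 with 1.73 ± 0.29, HLA-B 209140_x_at with 1.30 ± 0.21, HLA-B 211911_x_at with 1.25 ± 0.22 and PSMB8 with 1.23 ± 0.22. After adjustment limma called 0 of 19 and 0% of all probe sets, and the lowest adjusted p of a class I probe set was 0.700. At an unadjusted p under 0.05, 9 of 19 passed, against 4.86% of all probe sets, and these belonged to TAP1, PSMB8, PSMB9, HLA-B and HLA-C. The difference between the lines thus did not pass the test for any single member. The single untransfected array of each line adds no spread to this fit, so its errors and p-values do not measure how untransfected arrays vary.

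**Figure D3:**
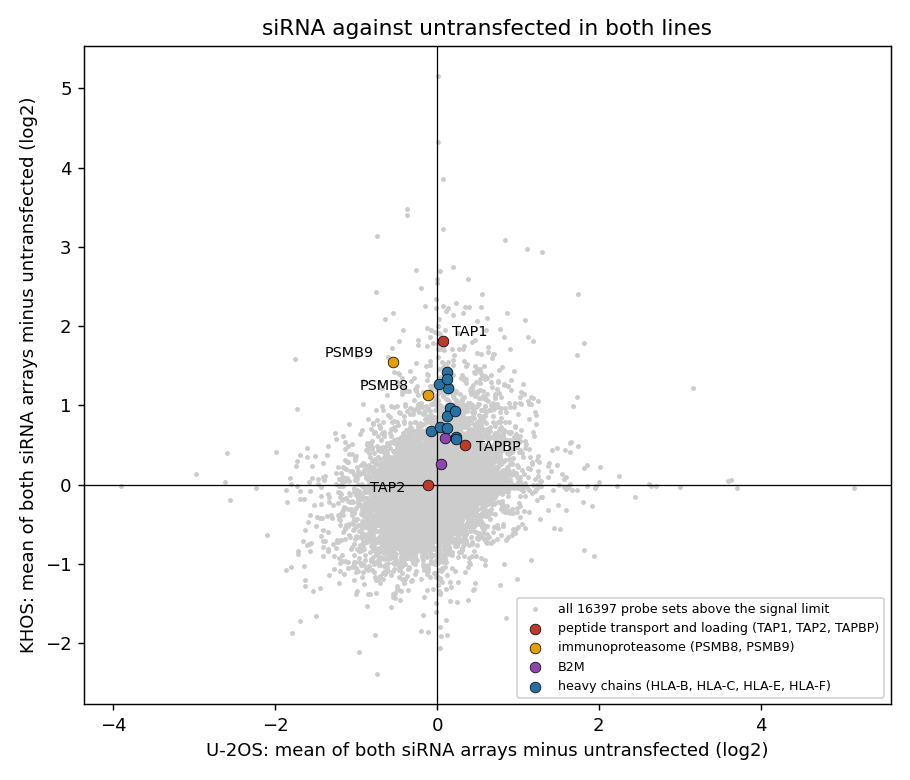
Mean of both siRNA arrays minus the untransfected array (log2), with U-2OS on the horizontal axis and KHOS on the vertical axis, for all 16397 probe sets above the limit in grey and the 19 class I probe sets in colour by role. The class I points lie between -0.54 and 0.35 for U-2OS and reach 1.81 for KHOS.

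The knockdown itself was read from CDK11 siRNA against nonspecific siRNA, in which both arrays carry siRNA. The class I genes had no common direction here. In KHOS 8 of 19 probe sets were higher and 11 lower with CDK11 siRNA, with a median of -0.07, and in U-2OS 9 were higher and 10 lower, with a median of -0.004. Of all probe sets, 51.9% were higher with CDK11 siRNA in KHOS and 52.7% in U-2OS. Beyond 3 SD there were 0 of 19 in KHOS, against 1.38% of all probe sets, and 0 of 19 in U-2OS, against 1.87%. Limma called 0 of 19 and 0% of all after adjustment, and at an unadjusted p under 0.05 it gave 1 of 19 and 2337 of all.

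The 1 probe set was TAP2 225973_at, which differed by -0.48 in KHOS and by -0.75 in U-2OS on the log2 scale. The fitted difference was -0.62 ± 0.13, with an adjusted p of 0.217. In U-2OS its score was -2.12. PSMB9 had -0.54 in KHOS and -0.22 in U-2OS, with a fitted difference of -0.38 ± 0.57. The remaining probe sets had fitted differences between -0.23 and 0.24.

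KHOS and U-2OS also differed in their class I signals before any transfection. For the heavy chains this is a gap in signal, since equal reading of both lines' HLA sequences was not tested. Untransfected KHOS cells had lower signals than untransfected U-2OS cells for all 12 heavy chain probe sets, with a median log2 difference of -1.31, and for 15 of all 19, with a median of -0.91. Thus 4 of the 19 were higher in untransfected KHOS cells, next to 53.4% of all probe sets above the limit. The largest gap was in HLA-B 209140_x_at, with 9.76 in untransfected KHOS and 12.22 in untransfected U-2OS cells, a difference of -2.46. With the siRNAs the gap was smaller. The heavy chain median was -0.65 with CDK11 siRNA and -0.62 with nonspecific siRNA, and the median of all 19 was -0.40 with CDK11 siRNA and -0.35 with nonspecific siRNA. HLA-E 200904_at, the heavy chain probe set without the suffix x, was higher in KHOS, by 0.37 with CDK11 siRNA and 0.58 with nonspecific siRNA. Over all probe sets above the limit, the median was 0.09 with CDK11 siRNA, 0.10 with nonspecific siRNA and 0.07 untransfected.

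The genes of peptide supply had another order. TAP1 was 0.09 higher in KHOS than in U-2OS untransfected, 1.78 with CDK11 siRNA and 1.86 with nonspecific siRNA. PSMB9 was 1.10 higher in KHOS with CDK11 siRNA and 1.42 with nonspecific siRNA, but its untransfected difference was -0.82. PSMB8 differed by 0.31 with CDK11 siRNA, 0.42 with nonspecific siRNA and -0.87 untransfected. TAP2 was higher in KHOS on each pair of arrays, by 0.98 with CDK11 siRNA, 0.71 with nonspecific siRNA and 0.74 untransfected, and TAPBP by 0.27 with CDK11 siRNA, 0.64 with nonspecific siRNA and 0.31 untransfected. Both B2M probe sets had differences between -0.09 and 0.45.

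**Figure D4:**
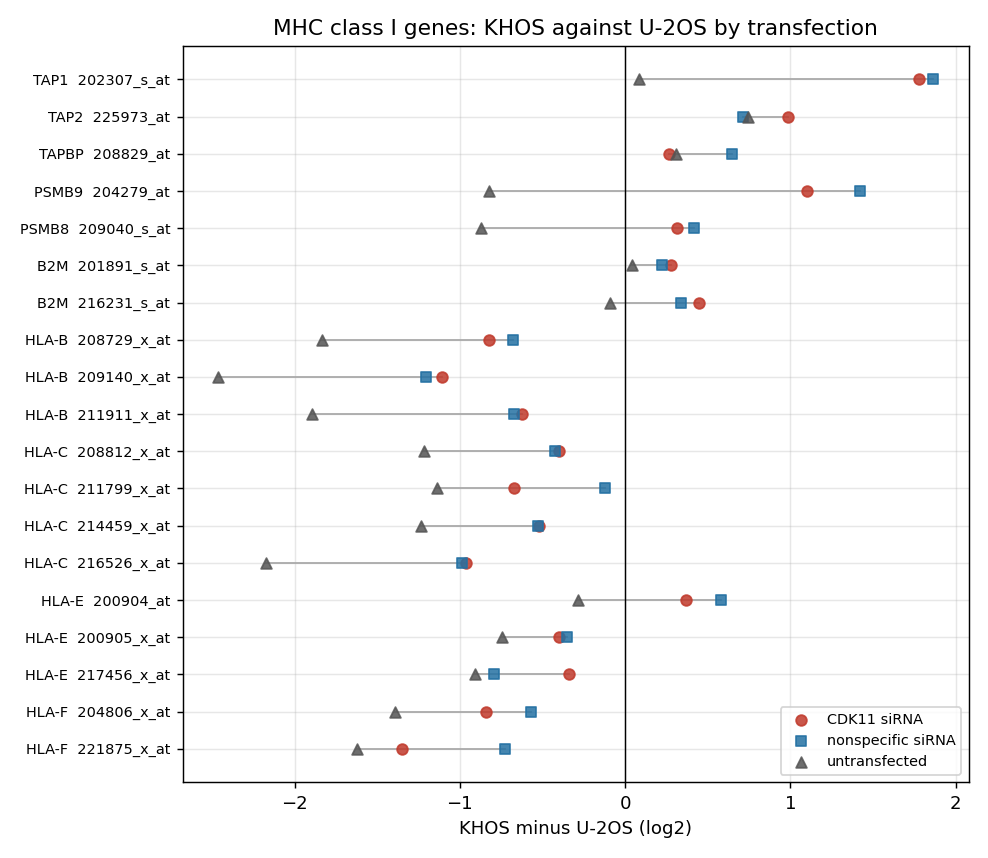
KHOS minus U-2OS (log2) of the 19 class I probe sets, with 1 marker for each transfection and a grey line over the range of the 3. The untransfected marker lies left of both siRNA markers for all but TAP2 and TAPBP, and the heavy chains other than HLA-E 200904_at lie left of 0 under every transfection.

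Limma called 14 of the 19 probe sets between KHOS and U-2OS over all transfections, or 73.7%, next to 72.1% of all 16397 probe sets, so that the share of called members was close to that of the array as a whole. The levels of the lines did not overlap for 12 of 19, next to 74.0% of all. All 3 KHOS arrays lay below all 3 U-2OS arrays for 11 of 19, next to 33.7% of all. These were the 11 heavy chain probe sets with the suffix x, which can match other sequences. The heavy chain probe set without it, HLA-E 200904_at, was not among them. The fitted differences, KHOS minus U-2OS, ran between -1.59 ± 0.30 in HLA-B 209140_x_at (adjusted p = 0.0069) and 1.24 ± 0.39 in TAP1 (adjusted p = 0.0366). TAP2 had 0.81 ± 0.11 (adjusted p = 0.0022). The 5 that did not pass were both B2M probe sets, HLA-E 200904_at, PSMB8 and PSMB9, with adjusted p between 0.175 and 0.894.

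Genes that work beside the members were followed as lists, with the probe set of the highest mean for each gene. Over 8878 genes read in this way, 1.89% had a mean siRNA difference of at least 1 log2 unit in KHOS and 0.969% in U-2OS. Of 6 genes of peptide loading and trimming, 5 were above the limit, and these 5 all had positive differences in KHOS, with a median of 0.35. In U-2OS all 5 had negative differences, with a median of -0.34, and 2 of the 5, ERAP1 and ERAP2, were below the limit on all 3 arrays. The medians over all genes were -0.001 in KHOS and -0.009 in U-2OS. ERAP2, a peptidase that trims peptides, had 6.66 with CDK11 siRNA, 5.82 with nonspecific siRNA and 5.51 in untransfected KHOS cells, so that it passed the limit on 1 array only. ERAP1, the related peptidase, had 10.57 with CDK11 siRNA, 10.62 with nonspecific siRNA and 10.11 in untransfected KHOS cells, against 5.55 with CDK11 siRNA, 5.65 with nonspecific siRNA and 5.96 untransfected in U-2OS. The chaperones CALR, CANX and PDIA3 differed by 0.35, 0.06 and 0.22 in KHOS, and by -0.09, -0.09 and -0.55 in U-2OS.

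The 5 genes of the proteasome and its activator above the limit differed little, with medians of 0.11 in KHOS and -0.02 in U-2OS. PSMB10, the remaining catalytic subunit of the immunoproteasome, differed by 0.08 in KHOS and -0.01 in U-2OS. PSME1, a subunit of the activator that interferon induces, differed by 0.46 in KHOS and by -0.33 in U-2OS. The constitutive subunits PSMB5, PSMB6 and PSMB7 differed by 0.05, 0.24 and 0.11 in KHOS.

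Of 14 genes that act on class I transcription, 12 were on the table and 11 above the limit, with medians of -0.06 in KHOS and -0.17 in U-2OS. IRF1, a factor that binds class I promoters, had 7.69 with CDK11 siRNA, 7.81 with nonspecific siRNA and 6.34 in untransfected KHOS cells, and levels between 4.28 and 4.89 in U-2OS, below the limit. IRF9, part of the complex that type I interferon activates, had 10.24 with CDK11 siRNA, 10.15 with nonspecific siRNA and 9.00 in untransfected KHOS cells. In U-2OS IRF9 had 7.94 with CDK11 siRNA, 7.74 with nonspecific siRNA and 7.31 untransfected. IRF2, which competes with IRF1 for the same sites, differed by 0.83 in KHOS and -0.02 in U-2OS, with its highest level, 8.45, on the KHOS CDK11 siRNA array. NLRC5, the class I transactivator, was below the limit on all 6 arrays, with its highest level at 2.40. RFXAP, RFX5, RFXANK, NFYA, NFYB and NFYC form the complex at the conserved class I promoter boxes. In KHOS all of them were below untransfected with CDK11 siRNA, but with nonspecific siRNA they had no common direction. Their mean siRNA differences in KHOS ran between -0.89 in RFXAP and -0.06 in NFYB. RFXAP differed from untransfected by -1.48 with CDK11 siRNA and -0.30 with nonspecific siRNA. RFX5 differed by -0.60 with CDK11 siRNA and 0.27 with nonspecific siRNA, and the other 4 by -0.41 to 0.10 with either siRNA.

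Of 17 interferon-stimulated genes, all had positive siRNA differences in KHOS, with a median of 1.91 and 14 at 1 log2 unit or more. In U-2OS 13 of the 17 were below the limit on all 3 arrays and had passed it only through their KHOS levels, so that their U-2OS differences are mostly background signal. The 4 others were ISG15, IFI6, UBE2L6 and PSMB10, with U-2OS differences of 0.09, 0.24, -0.07 and -0.01. RSAD2, an antiviral enzyme, had 9.99 with CDK11 siRNA, 10.22 with nonspecific siRNA and 6.71 in untransfected KHOS cells. MX1, USP18 and IFI44L, which act against viruses or tune the interferon response, differed by 2.55, 2.35 and 2.24 in KHOS and are among the 13. PSMB10 was the gene of this list with the smallest difference in KHOS. The list, like the members, was chosen with earlier results known, and the part of interferon in the class I differences was not tested. The 7 housekeeping genes had medians of 0.01 in KHOS and -0.05 in U-2OS.

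**Figure D5:**
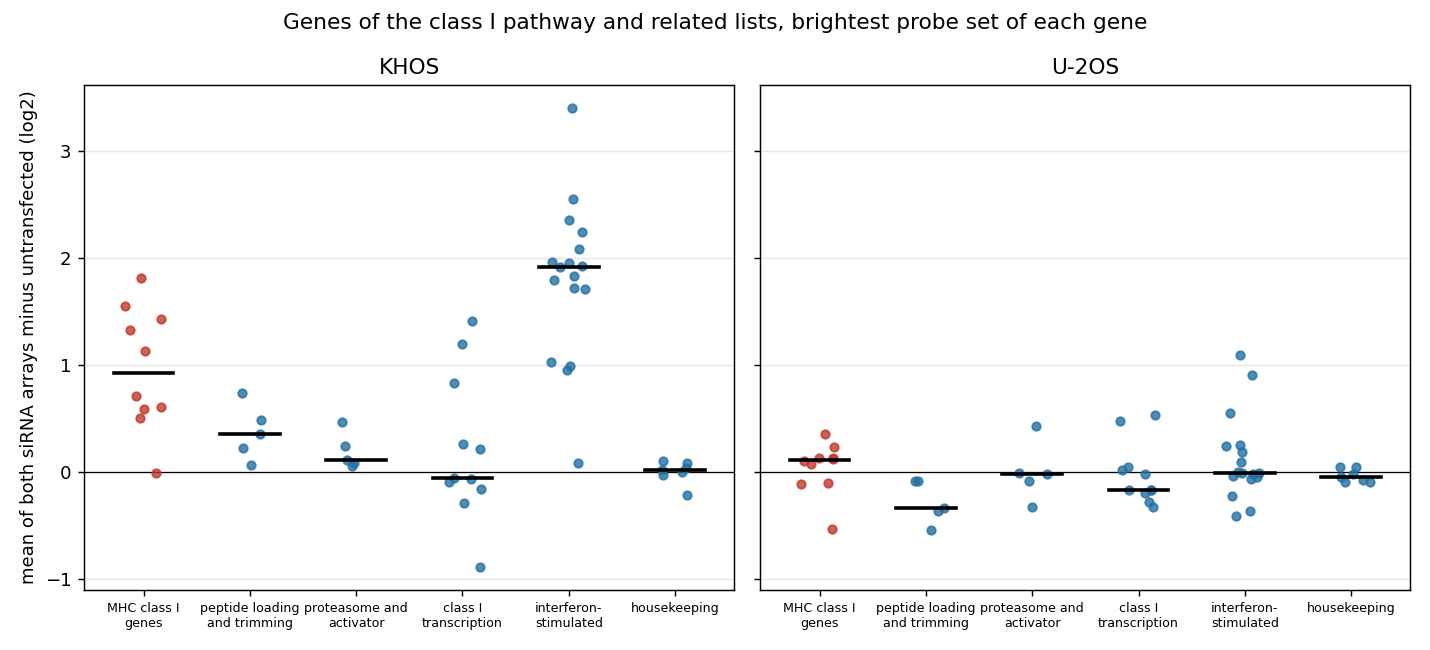
Mean of both siRNA arrays minus the untransfected array (log2) for the class I genes in red and for 5 lists in blue, 1 point per gene, read by its probe set of the highest mean, with a black bar at the median. KHOS is on the left and U-2OS on the right. In KHOS the medians are 0.92 for the class I genes and 1.91 for the interferon-stimulated genes, and in U-2OS that of the class I genes is 0.11, while 13 of 17 interferon-stimulated genes there are below the signal limit on all arrays.

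The genes whose pattern was most like that of the members were found over the 6 arrays, after each line's mean was taken from its values, among 3168 probe sets of other genes with an SD of at least 0.3. The 5 closest were RTP4, IFIT1, MX2, PARP10 and IFIT2, with Pearson correlations to the mean of the 10 members between 0.990 and 0.994. The 6 points come from 2 lines with 1 untransfected array each, and the correlations are descriptions. RTP4 had 7.96 with CDK11 siRNA, 8.12 with nonspecific siRNA and 2.88 in untransfected KHOS cells, and stayed between 2.22 and 2.23 in U-2OS. MX2 had 10.22 with CDK11 siRNA, 10.48 with nonspecific siRNA and 7.87 untransfected in KHOS, and levels between 2.70 and 2.99 in U-2OS. Both genes are thus far below the limit on all U-2OS arrays. Among the members, the correlation with their own mean was between 0.79 and 0.99 for 9 genes and 0.07 for TAP2.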

How the data were processed

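RNA of KHOS and U-2OS cells was hybridized to Affymetrix U133 Plus 2.0 arrays, 1 per condition. The authors deposited log2 values, which they made with gcrma; its version is not given in the sources used here. The authors' present and absent calls were not used. Probe sets were named from the platform annotation, with 41043 of 41097 single symbols matched to RefSeq by gene ID, and the deposited files name no genome build. The promoter windows are RefSeq's, of GRCh38.p14.

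Probe sets with a highest log2 value above 6.64 were kept. Python 3.11.15, pandas 2.3.3, numpy 2.4.6 and scipy 1.17.1 were used, with matplotlib 3.10.9 for plots. The log2 differences within a line were scaled by the mean and SD of all kept probe sets, with a threshold of 3. All kept probe sets entered a limma 3.58.1 fit (R 4.3.3) with transfection and cell line as additive terms, two-sided, with Benjamini-Hochberg adjusted p-values over 16397 probe sets, and the fit was tested on simulated data. The 2 lines stand in for replicates, and p-values measure the spread between these arrays only. The fit of both siRNAs as 1 condition, the counts of probe sets above untransfected with both siRNAs and the motifs were chosen after seeing the data. The members and gene lists were chosen with earlier results of these data known. The rule for named genes took every probe set of a member, up to 4 genes of each list by the size of the difference and the 5 genes of the most similar pattern. Further list genes were named for their roles after their values were seen. Alternatives covered the filter, the variance prior, the scaling, the arrays in the fit, the additive term and the threshold.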

Additional observations from a re-analysis of the deposited data

Results flagged for a closer look

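In 3 probe sets both siRNA arrays lay above the untransfected array in KHOS and below it in U-2OS. The KHOS minus U-2OS difference of siRNA against untransfected was 2.085 for PSMB9 204279_at, 1.234 for PSMB8 209040_s_at and 0.757 for HLA-E 200904_at on the log2 scale. PSMB9 was below the signal limit on the untransfected KHOS array and on both U-2OS siRNA arrays. In the limma fit of this difference, chosen after seeing the data, the adjusted p was 0.700 for PSMB9, 0.700 for PSMB8 and 1.0 for HLA-E, so that none passed. For HLA-E and PSMB8 the U-2OS differences from untransfected were 0.16 or less in size for each siRNA.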

How the results depend on the processing

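No class I probe set passed limma for either siRNA against untransfected or for CDK11 siRNA against nonspecific siRNA under any of the 8 alternatives run for each. Between KHOS and U-2OS the 14 calls became 4 without the filter, where all 54675 probe sets were tested, 7 of 10 genes with 1 probe set per gene, and 9 without the transfection term. Leaving out the arrays of 1 transfection gave between 10 and 14. The shares of all probe sets called under these settings are not given here. Whether the calls of the class I probe sets changed more than those of the whole array therefore cannot be read from these counts. Of the probe sets beyond 3 SD for CDK11 siRNA, the count in KHOS was 1, TAP1, with the untransfected array as control, and that in U-2OS was 1, TAP2, with either a threshold of 2 SD or the median and MAD as scale. In U-2OS the median siRNA difference was 0.14 with each array centred on its median and 0.17 with centring on housekeeping genes. In KHOS it stayed between 0.82 and 0.87, with 18 of 19 above 0 and 7 of 19 at 1 log2 unit or more. These scalings moved the KHOS minus U-2OS difference of all probe sets by -0.15 and 0.12. With 1 array per condition, a class I difference within a line has no replicate check, and most heavy chain probe sets can match several HLA genes.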
